A study of Mus musculus with 2 samples.

Results

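The models described here are spliced transcript models of mouse heart RNA that use at least 1 donor or acceptor site absent from the GENCODE M21 annotation of their gene. They were taken from the class that the annotation program TALON names NNC (not in catalog) in the deposited tables. Members were chosen by their class and read number: a model was kept when the same chromosome, strand and chain of introns carried this class and at least 1 read in each of 2 libraries. The rule kept 1577 models, here called members, of the 14295 NNC intron chains found in either library (11.03%), and of 18531 spliced models of any class with reads in both. The libraries form 1 group, hearts from B6CASTF1/J females 18 to 20 months old, an F1 hybrid, profiled by long-read RNA sequencing from 2 µg of RNA each. No control group, treatment or transgene is listed. The labels give each library its own biological sample but list the same donor entry and the same pair of sample names for both, so the spread between them may be technical.

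Long reads follow a cDNA through many of its exons, so that a change at 1 splice site is seen together with the rest of the transcript. An intron runs from a donor site, whose intron side nearly always begins with GT, to an acceptor site, whose intron side ends with AG. When the splicing machinery uses a GT or AG a few bases away from the usual one, the exon gains or loses those bases, and in coding sequence a change that is not a multiple of 3 shifts the reading frame. Very short exons are a special case, since few bases distinguish a read that holds the exon from a read without it.

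The following stretches of mm10, read from the GENCODE M21 transcript sequences, show examples of the sites described in the results. Each is written in the direction of transcription, and the capitals mark the bases between the annotated site and the site the member used. The first 6 are donors that lie downstream of the annotated donor, so that the capitals begin the annotated intron and were kept in the exon of the member.
Mrpl33 donor, chr5:31614013-31614040, plus strand: gctgtctcttGTAAGTCGgtctgaggcg
Idh3g donor, chrX:73782661-73782684, minus strand: catttcctcaGTAAgtacctgcct
Tnni3 donor, chr7:4522291-4522314, minus strand: tggctgatgaGTATgtgaatcttc
Tnni3 donor further downstream, chr7:4522283-4522312, minus strand: gctgatgaGTATGTGAATCTTCgtagcctt
Rps24 donor, chr14:24494064-24494093, plus strand: tagcagGTACTGCCATTGGGCACGgtgtgg
Capn2 donor, chr1:182484180-182484208, minus strand: tatgagGTACCGGCAGAGGATGGgtgggg
In all 6, GT starts the capitals and also follows directly after them. The next 4 are acceptors downstream of the annotated acceptor, so that the capitals start the annotated exon and were left out by the member. The capitals end in AG in each.
Atp5j acceptor, chr16:84831493-84831517, minus strand: gcttctctagTACAGagactcagcc
Mettl9 acceptor, chr7:121076120-121076142, plus strand: tttgttctagTAGgtggcaagtg
Myl3 acceptor, chr9:110769575-110769598, plus strand: tttgcttcagGAAGcccagggcag
Myh6 acceptor, chr14:54965464-54965485, minus strand: cccccataagAGtttgagtgac
The last 5 are whole annotated exons of at most 25 bases, in capitals throughout, that lay inside new introns of the members whose donors are shown above.
Mrpl33 exon, chr5:31614603-31614621, plus strand: TTGCCAAGAGCAAGTCAAA
Idh3g exon, chrX:73782298-73782309, minus strand: CAACAAACAATT
Tnni3 exon, chr7:4522070-4522082, minus strand: GAGCAGCGATGCG
Rps24 exon, chr14:24495430-24495449, plus strand: TGAGTGGAGATTGGATACAG
Capn2 exon, chr1:182482536-182482547, minus strand: GTTCCAGAGGAG

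The deposited tables listed 630211 mouse reads in replicate 1 and 664319 in replicate 2. All 6 cardiomyocyte markers had reads in both libraries, with sums of 21340 and 21280. The libraries differed in red cell transcripts (15295 and 6404 reads of 3 genes), atrial markers (1122 and 2909 reads of 4 genes), fat cell markers (26 and 382 reads of 4 genes) and airway markers, which were listed at 0 in replicate 1 and at 402 reads in replicate 2, from 3 of the 4 genes. Skeletal muscle markers summed to 4 and 3 reads, with Myh4, Tnnt3 and Pvalb at 0. Few members lay in these genes: 2 members lay in red cell genes (52 and 24 reads), 3 in atrial genes (4 and 12 reads) and none in the fat cell or airway genes. Their part in the results was not tested.

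Members held a small share of the library and nearly the same number of reads in each. NNC models numbered 7689 and 8183 with 13961 and 14187 reads, which was 2.22% and 2.14% of mouse reads. Members took 6466 and 6448 of those reads (46.3% and 45.5%), or 1.03% and 0.971% of mouse reads. They lay in 1122 annotated genes, 1070 of them protein-coding, and under 28 gene identifiers outside the annotation, which each library assigned on its own. A single member was found in 900 genes, and 22 genes held 5 or more. The genes with the most members were Myl2, the ventricular regulatory myosin light chain, with 12, and Atp2a2, Myl3 and Tnnc1 with 11 each.

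Most members stood at the limit of the rule. The lower library held 1 read for 1047 members, 571 of which had 1 read in each library, and the higher library then reached at most 8 reads. At least 2 reads in each library were found for 530 members, at least 5 for 162, at least 10 for 82 and at least 100 for 7. Just outside the rule, 5910 and 6410 NNC models had an intron chain that no model of the other library shared. Of these, 5529 and 5965 had 1 read, and the highest had 8 reads in each library, a model of Mrpl14 in replicate 1 and of Tnni3 in replicate 2. A further 202 and 196 NNC models had their chain in the other library under another class, mostly as a new combination of known sites (168 and 155).

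Recovery in the other library followed the number of reads. Among NNC models with 1 read, 12.7% of replicate 1 and 11.7% of replicate 2 were found again under the same class. The share was 45.4% and 43.5% at 2 reads, and 82.2% and 86.6% at 5 to 9 reads. At 10 reads or more it was 84.8% and 90.4% (exact Clopper-Pearson 95% intervals of 77.3% to 90.6% and 83.5% to 95.1%). An NNC model whose chain no model of the other library shared had at most 8 reads. The models with 10 reads or more not found under the same class therefore had their chain there under another class. New combinations of known sites, the class NIC, reached 20.7% and 19.3% at 1 read and 93.9% and 88.9% at 10 or more. Annotated transcripts reached 49.6% and 41.8% at 1 read and 100% and 99.7% at 10 or more. At 10 reads or more the NNC share lay below the NIC share in replicate 1 and above it in replicate 2. The difference between these classes was not tested. Because recovery is what chose the members, these shares describe the rule and are not a test, and all intervals here cover counting error only.

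**Figure D1:**
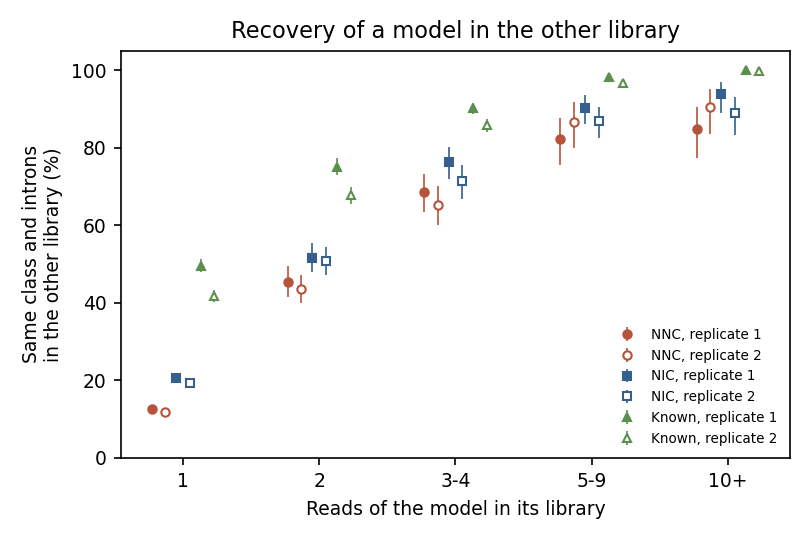
Percent of models of one library found with the same class and the same introns in the other, by the reads of the model, with exact 95% intervals as bars. Filled marks start from replicate 1 and open marks from replicate 2, and NNC models lie lowest at 1 read, at 12.7% and 11.7%.

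The members with the most reads had similar read numbers in both libraries. The member with the most reads was in Mrpl33, a protein of the large subunit of the mitochondrial ribosome, with 365 and 381 reads. It was followed by Vdac3, a channel of the outer mitochondrial membrane, with 250 and 236 reads. Idh3g, a regulatory subunit of the mitochondrial isocitrate dehydrogenase, had 216 and 244. Next came Atp2a2, the calcium pump of the sarcoplasmic reticulum (182 and 150), Tnni3, cardiac troponin I (169 and 132), Atp5j, a coupling subunit of the mitochondrial ATP synthase (143 and 130), and Rps24, a ribosomal protein (107 and 100). Of the 203 members with at least 10 reads over both libraries, 164 lay within 2-fold between them after scaling. The same count over all models tested is not given here, and the rule required a read in each library, so this describes the members only.

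**Figure D2:**
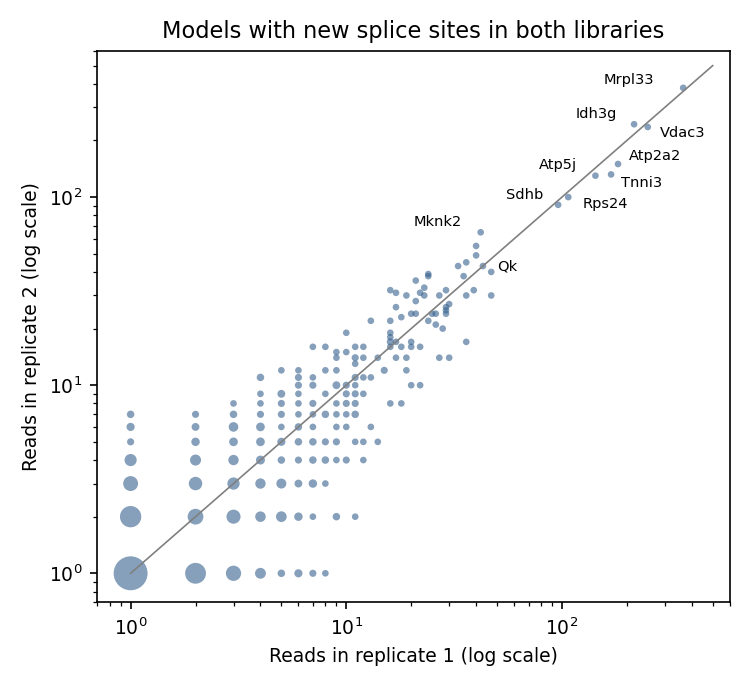
Reads of each of the 1577 members in replicate 1 (x axis) and replicate 2 (y axis), both on log scales, with the line of equal reads. Larger dots stand for more members at the same pair of values, and the largest dot, at 1 read in each library, holds 571.

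None of these 203 members was called by an exact two-sided binomial test with Benjamini-Hochberg adjustment over all matched spliced models, where 1.68% of 7078 models were called. Without adjustment 15 members had p under 0.05, or 7.39%, beside 9.01% of all models tested. The smallest adjusted p of a member was 0.138 for the leading Tnni3 model. The share of gene reads was compared by the exact test of Fisher where each library held at least 10 reads of the gene. There 1 of 1284 members was called, beside 0.504% of 12711 models, and 17 members (1.32%) had an unadjusted p under 0.05, beside 3.38% of all. Both tests compare 2 libraries and not conditions. A member had to hold a read in each library, so a model found in only 1 library could not be among them. Few reads limit what either test can call, and 82 members had at least 10 reads in each library. Read number was not matched between members and all models, so the shares called do not compare their stability.

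The member called by Fisher's test lay in Pln, which encodes phospholamban, the inhibitor of the calcium pump. It used an acceptor 4 bases downstream of the annotated one and had 5 of 803 gene reads in replicate 1 and 2 of 9718 in replicate 2 (0.623% and 0.0206%, adjusted p = 0.0125 by Fisher's exact test). The gene reads left out the class Genomic, which held 8696 Pln reads in replicate 1 and 0 in replicate 2. In replicate 2, 8851 Pln reads were classed as incomplete matches to known transcripts, against 2 in replicate 1. With the Genomic class kept the gene had 9499 and 9718 reads, the adjusted p was 1, and no member was called.

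New donors outnumbered new acceptors. A single new donor was the only new site of 780 members, and a single new acceptor that of 483. Another 255 members had 1 of each, and 50 had 3 or more new sites. Counted once each, there were 1123 new donors and 818 new acceptors, of which 1093 and 788 lay in a gene with an annotated site of the same kind. Summed over sites, reads outside the Genomic class used the 1123 donors 6129 and 6296 times and the acceptors 4186 and 4361 times. A read with more than 1 new donor or acceptor counts at each.

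Many new sites lay within a few bases of an annotated one. The median distance to the nearest annotated site of the same gene was 121 bases for donors (quartiles 6 and 802) and 56.5 bases for acceptors (quartiles 4 and 1002). Within 10 bases lay 308 donors (28.2%) and 280 acceptors (35.5%), and within 100 bases 47.9% and 55.2%. For NNC models found only in replicate 1 or only in replicate 2, 31.6% and 30.4% of new donors lay within 10 bases. For their new acceptors it was 33.2% and 27.2%. Over 10 kb away lay 53 donors and 47 acceptors. A new site lay inside an annotated exon of its gene for 36.3% of donors and 59.3% of acceptors.

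Close to annotated sites, a few distances held most of the new sites. Of the 308 near donors, 177 lay exactly 4 bases downstream of the annotated donor, used by 1264 and 1331 reads summed over sites. No other distance within 10 bases held more than 24 donors. Of the 280 near acceptors, 88 lay 3 bases downstream, 50 lay 2 bases and 49 lay 4 bases downstream, and 22 lay 3 bases upstream. Direction was uneven in both kinds, with 241 near donors downstream and 67 upstream, and 249 near acceptors downstream and 31 upstream. A distance that is a multiple of 3 was found for 13.6% of near donors and 49.3% of near acceptors. From 11 to 100 bases away the same shares were 38.4% and 43.9%.

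**Figure D3:**
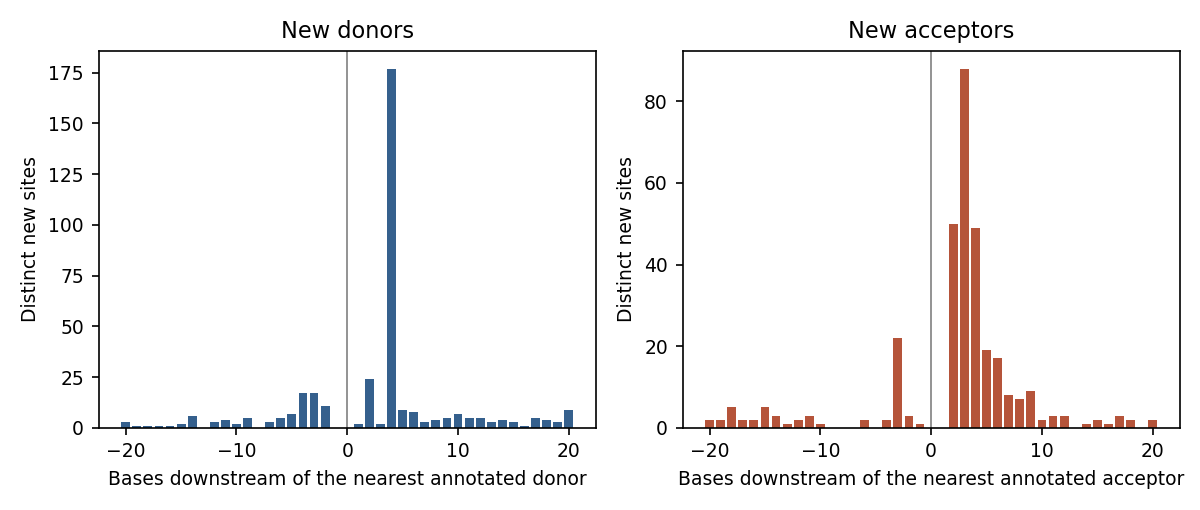
Distinct new donors (left) and new acceptors (right) by their signed distance in bases from the nearest annotated site of the same gene, within 20 bases, with positive values downstream. The tallest bars are 177 donors at 4 bases downstream and 88 acceptors at 3 bases downstream.

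Where the intron side of a new site could be read, it mostly carried the usual bases, with GC more frequent than at annotated donors. Reading was possible only where an annotated transcript covers those bases, which held for 407 new donors and 486 new acceptors. GT followed 374 donors (91.9%) and GC followed 31 (7.62%), and AG preceded 479 acceptors (98.6%). Annotated sites of the same genes, read in the same way, had GT at 96.0% and GC at 2.78% of 2304 donors, and AG at 98.4% of 2098 acceptors. Over all dinucleotides in the exons of these genes GT made up 5.54%, GC 5.97% and AG 7.76%. Of the 31 GC donors, 8 lay 4 bases upstream of an annotated donor, as in Usmg5, a small subunit of the ATP synthase complex.
Usmg5 donor, chr19:47084759-47084782, minus strand: ggaattacagGCAAgtgccaccat

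The favoured distances were set against the letters at annotated sites. Bases could be read for 46 donors at 4 bases downstream. Of these, 44 had GT after both the annotated and the new donor, the pattern GTNNGT on the coding strand. Donors of both kinds mostly carry GT, so the distance of 4 bases by itself gives this pattern. It followed 35.9% of 2248 annotated donors of the same genes, which is no comparison for those 46. For acceptors, the exon began with AG as bases 1 and 2 at 5.31% of 11743 annotated acceptors, with AG as bases 2 and 3 at 5.42%, and with AG as bases 3 and 4 at 5.98%. AG preceded all 88 new acceptors at 3 bases downstream and 49 of the 50 at 2 bases. A match of letters describes the sequence and is no evidence for a site.

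By structure, members with all new sites within 10 bases of annotated ones numbered 551 (34.9%) and held 46.4% and 46.2% of member reads. Another 344 had all new sites within 100 bases (22.9% and 23.7% of member reads). A new internal exon was found in 146 members, a new first exon in 191 others and a new last exon in 56 others, and 289 fell in none of these groups. For 1176 members whose new junctions formed 1 unbroken run, an annotated transcript spanned the same flanking exons and could be set beside them. Where several did, the one closest in exonic length to the member was taken as its counterpart. The length differences depend on this choice. Of these, 601 were longer than this counterpart, 561 were shorter and 14 had the same exonic length. When every new site lay in the coding span (923 members), the length differed by a multiple of 3 in 345 (37.4%). Among the 94 of them that had 5 reads or more per library it was 41.

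In 6 of the members of equal length both ends of 1 intron had moved the same way by the same number of bases, so that bases lost at one exon were gained at the other. In 4 of them both ends lay 4 bases downstream. The most read were Ptcd3, a pentatricopeptide protein of mitochondria (24 and 38 reads), and Got2, the mitochondrial aspartate aminotransferase (17 and 31 reads). These genes were named after their values were seen. The other 4 members had at most 3 reads in a library.

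Short annotated exons lay inside the new introns of the most-read members. A new junction spanned an annotated internal exon of at most 25 bases in 73 members of 55 genes. They were 4.63% of members but held 24.3% of member reads in each library (1573 and 1565 reads), and they made up 11 of the 20 members with the most reads. Among the 162 members that had 5 reads or more per library, the share was 16.7%. Among NNC models found in 1 library only, 2.69% in replicate 1 and 2.14% in replicate 2 spanned such an exon. In 48 of the 73 members, from 38 genes, no read of either library had any of the spanned short exons with its annotated boundaries.

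Some of the spanned exons belong to few annotated transcripts. In Mrpl33 the donor 8 bases downstream joined past a 19-base exon that 3 of 9 annotated transcripts across it hold, with 4 and 4 reads of the gene against 365 and 381 of the member. The Idh3g donor 4 bases downstream joined past a 12-base exon of 1 of 4 transcripts, with 0 reads in both libraries. The closest annotated transcripts of these members also lack the exon, and the members were longer by the 8 and 4 bases of the donor shift. In Tnni3, the 3 most-read of its members lacked the same 13-base exon, which was at 0 among 687 and 649 gene reads and belongs to 4 of 6 annotated transcripts across it. The first Tnni3 member extended the exon before it by 4 bases and was 9 bases shorter than its counterpart. The second Tnni3 member extended it by 14 bases, was 1 base longer and had 39 and 32 reads. The third had 18 and 23 reads and used an acceptor 16 bases upstream.

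Further members lacked a short exon and gained bases at a flanking site. Rps24 gained 18 bases at the donor and lacked a 20-base exon of 3 of 6 transcripts. That was a net of 2 bases fewer than the counterpart closest in length, which holds the exon. Capn2, a calpain protease, gained 17 bases and lacked a 12-base exon, a net of 5 bases more. Suds3, a subunit of a histone deacetylase complex, had a donor 4 bases downstream and an acceptor 16 bases upstream, and lacked a 20-base exon, so that its length equalled that of its counterpart. Hacd1, an enzyme of fatty acid elongation, gained 27 bases and lacked a 19-base exon. Chmp1a, a component of the machinery that cuts membrane necks, gained 25 bases and lacked a 20-base exon. The exon is in the only transcript across it in Capn2, in 4 of 4 in Suds3 and in Hacd1, and in 1 of 3 in Chmp1a. In Rps24, Capn2, Suds3, Hacd1 and Chmp1a it had 0 reads in both libraries.

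Short exons were not missing throughout. The 18-base exon of Atp2a2 was held by 2321 and 2160 reads beside a member that lacked it and had a donor 4 bases downstream (182 and 150 reads). A 21-base exon of Uqcrh, the hinge subunit of respiratory complex III, had 661 and 664 reads against 27 and 30 of the member without it. A 25-base exon of Bsg, a membrane glycoprotein that accompanies lactate transporters, had 1291 and 1413 reads against 13 and 6. Uqcrh and Bsg were named after their values were seen.

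Length separated the spanned exons. In genes that had 20 reads or more per library, a new junction of a member spanned 32.1% of the 56 annotated internal exons of 1 to 12 bases and 17.5% of the 166 of 13 to 25 bases. It spanned 2.52% of 516 exons of 26 to 40 bases and at most 0.900% of each longer class. Among exons that every annotated transcript across them holds, the share was 29.4% of 34 at 13 to 25 bases and 2.17% of 184 at 26 to 40 bases. Whether or not a member spanned them, 98.2% of the exons of 1 to 12 bases and 54.8% of those of 13 to 25 bases had 0 reads in both libraries, beside 14.1% of exons over 100 bases. Among exons held by every annotated transcript across them it was 11.8% (4 of 34) at 13 to 25 bases, beside 5.23% over 100 bases. How the authors' aligner and model filters treat very short exons is not stated in the deposited notes, and their part in these models was not tested.

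**Figure D4:**
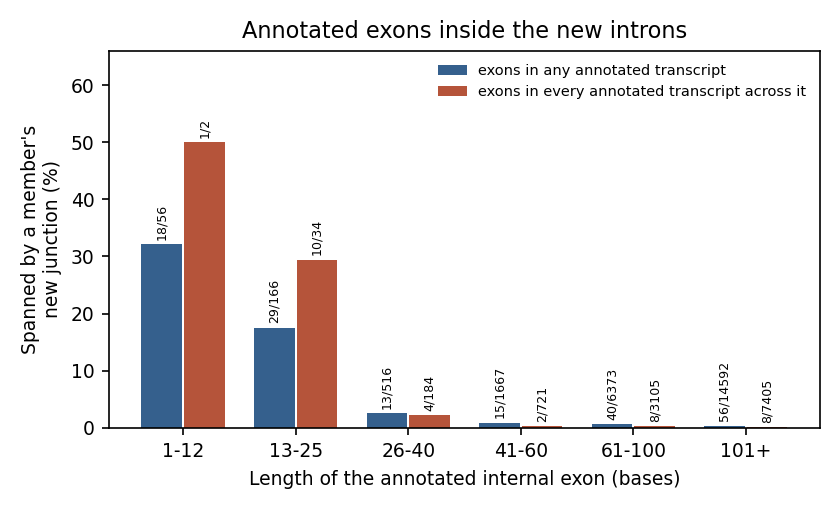
Percent of annotated internal exons that lay inside a new junction of a member, by exon length in bases, in genes that had 20 reads or more per library. Blue bars take exons of any annotated transcript and red bars exons held by every annotated transcript across them, and the fractions above the bars give spanned over annotated exons, such as 29/166 and 10/34 at 13 to 25 bases.

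New internal exons, with both boundaries new and no overlap with an annotated exon of the gene, numbered 155 in 137 genes. They lay in 9.26% of members, beside 10.95% and 12.4% of NNC models found only in replicate 1 or only in replicate 2. The median length of the 155 exons was 93 bases (range 21 to 2149), beside 118 bases for annotated internal exons of the member genes. A multiple of 3 was found for 38.1% of the new exons and for 38.7% of the annotated exons. In the coding span it was 40 of 80. A further 18 exons had both boundaries new but overlapped an annotated exon.

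The member with a new internal exon and the most reads lay in Tmem65, a membrane protein. Its exon was 81 bases long and lay at chr15:58807078-58807158 on the minus strand, between annotated exons of the coding span. It was held by 29 of 110 gene reads in replicate 1 and 32 of 96 in replicate 2 (26.4% and 33.3%). A 45-base exon of Ywhae, a 14-3-3 adaptor protein, lay at chr11:75762698-75762742 on the plus strand and was held by 26 and 25 reads of 116 and 164. Kcng2, a modifier subunit of voltage-gated potassium channels, had a 167-base exon outside its coding span with 33 and 46 reads of 107 and 128. Fermt2, an activator of integrins, had a member with 2 new exons of 24 and 21 bases, both multiples of 3, which 10 and 15 reads and 21 and 23 reads of 32 and 36 held. In Fabp3, the fatty acid binding protein of heart, a 161-base exon appeared in only 11 and 13 of 7627 and 8273 reads.

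In Abcd3, a transporter of the peroxisome membrane, a new exon stood in place of an annotated one. The 70-base exon at chr3:121787980-121788049 on the minus strand had both boundaries exactly 1978 bases upstream of those of an annotated exon, which therefore also has 70 bases. The new exon was held by 19 and 31 reads, and the annotated donor by 3 and 8. The member took 17 of 21 and 26 of 42 gene reads (81.0% and 61.9%), or 51.5% and 40.6% with the Genomic class kept. The remaining new exons named by read number lay in Pcbd2 (53 bases), Idh3b (143 bases), Eps15l1 (48 bases) and Pfdn1 (84 bases), with 4 to 14 exon reads in each library.

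Members with new first exons reached a large share in some genes, named here by read number after their values were seen. The Cmss1 member with a 48-base first exon had 29 of 49 and 26 of 33 gene reads (59.2% and 78.8%), and the donor of this exon was used by 35 and 28 reads over all models. The exon lay 253683 bases downstream of the nearest annotated start, at chr16:57353046-57353093 on the minus strand. Sbk1, a serine/threonine kinase, had an 875-base first exon 24381 bases upstream of its nearest annotated start in a member with 29 and 25 reads (59.2% and 49.0%). Fhl2, a LIM domain protein of heart, had one 1351 bases upstream in a member with 36 of 605 and 17 of 504 reads. In Myh6, the alpha myosin heavy chain, the member with a first exon 1162 bases upstream had 25 of 9019 and 24 of 8688 reads (0.277% and 0.276%), while the donor of that exon was used by 120 and 84 reads over all models. New last exons had fewer reads, with 4 such members reaching 5 reads in each library. The deposited models do not state whether a read reached the start of its RNA.

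Most members took a small share of their gene. The median share was 2.70% and 2.50% of gene reads over 1560 members of annotated genes, with the Genomic class left out. In the 697 genes that had 20 reads or more per library it was 1.08% and 1.03% over 1118 members, and 503 of these stayed under 1% in each library. A share of at least 10% in each library was reached by 76 members and of at least 50% by 17. In 31 genes the member was the model with the most reads in each library. By gene reads over both libraries, a member was held by 3.18% of genes with 1 to 9 reads, 9.47% with 10 to 99, 29.8% with 100 or more but under 1000, and 71.4% of the 175 genes with 1000 reads or more. In the same order, the median percent of gene reads in members was 50%, 11.95%, 1.78% and 0.475%. The shares thus fell as gene reads rose.

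In genes that had 20 reads or more per library, the highest share was in Mrpl33. The member took 96.1% of 380 gene reads in replicate 1 and 95.01% of 401 in replicate 2 (exact Clopper-Pearson 95% intervals 93.6% to 97.8% and 92.4% to 96.9%). Annotated Mrpl33 transcripts had 5 reads in each library. The Idh3g member took 89.3% and 88.4% of 242 and 276 gene reads, and annotated Idh3g transcripts had 2 and 3 reads. Capn2 had 21 of 22 and 36 of 38 reads in the member (95.5% and 94.7%) and no read of an annotated transcript in either library.

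In Vdac3 the member took 250 of 293 and 236 of 287 gene reads (85.3% and 82.2%). Its new donor, at position 22587549 of chromosome 8 in the coding span, lay 1 base downstream of an annotated donor that no read used. It lay 4 bases downstream of another annotated donor, which 18 and 20 reads used against 256 and 242 for the new one. Cct6a, a subunit of the cytosolic chaperonin typed as a processed transcript in this annotation, had 40 of 46 and 49 of 61 reads in a member with new sites at both ends of 1 intron. Pitpna, a phosphatidylinositol transfer protein, had 36 of 48 and 45 of 65. The new intron of the Cct6a member spanned a 13-base annotated exon. That of the Pitpna member spanned annotated exons of 11 and 8 bases. All of these short exons had 0 reads in both libraries. Rps24 had 107 of 154 and 100 of 153 (69.5% and 65.4%), and the same new donor was used by 149 and 143 reads of all models against 3 and 1 for the annotated donor.

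**Figure D5:**
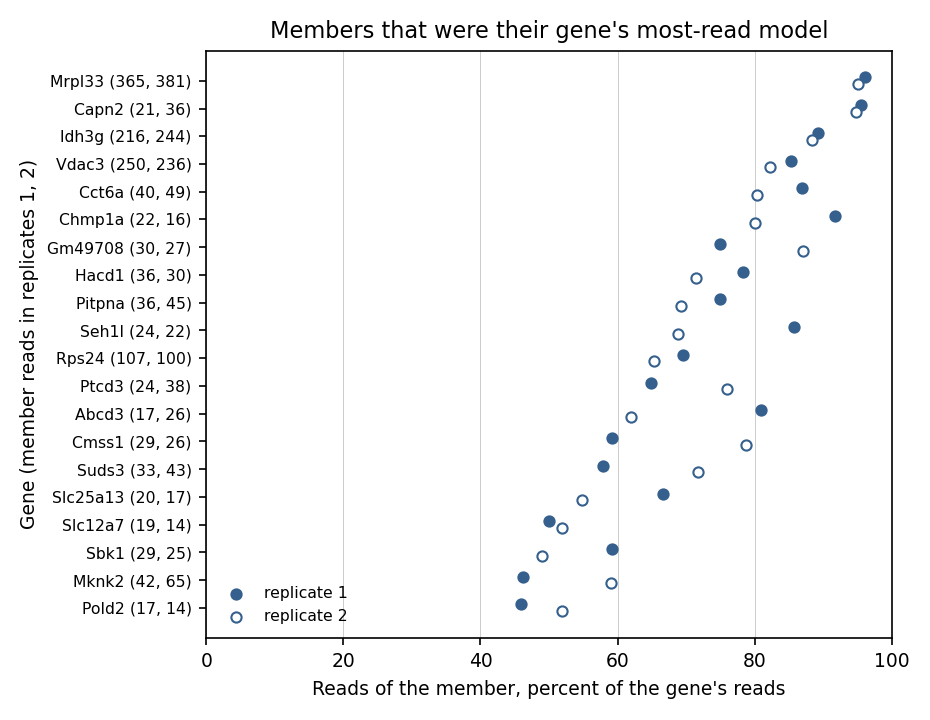
Share of gene reads taken by the member in replicate 1 (filled) and replicate 2 (open), in percent, for the 20 highest (by the lower library) of the 31 members that were the most-read model of their gene, with member reads in brackets. Mrpl33 lies highest, at 96.1% and 95.01%, and the 20 genes lie above 45% in each library.

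A large number of reads did not mean a large share. The Atp5j member, with an acceptor 5 bases downstream and outside the coding span, took 143 of 1810 and 130 of 1773 gene reads (7.90% and 7.33%). Sdhb, the iron-sulfur subunit of succinate dehydrogenase, had an acceptor 6 bases downstream in 96 of 1381 and 91 of 1410 (6.95% and 6.45%). The leading Tpm1 member, of alpha tropomyosin, had an acceptor 2 bases downstream in 47 of 5913 and 30 of 5813 reads (0.795% and 0.516%). Shares between 39% and 60% were found for Mknk2, a kinase that acts on a cap-binding factor, whose member used a donor 42 bases upstream (42 of 91 and 65 of 110 reads), for Hfe2, which encodes hemojuvelin, with an acceptor 18 bases upstream (40 of 96 and 55 of 138), and for Dctn2, a dynactin subunit, with a donor 10 bases downstream (24 of 56 and 39 of 69). Car14, a carbonic anhydrase, had a donor 26 bases downstream and an acceptor 22 bases upstream in 47 of 150 and 40 of 122 reads. The new introns of this member also spanned 3 short annotated exons. One of 22 bases had 63 and 49 reads, and those of 21 bases had 62 and 47 and 1 and 0 reads. The Ndufab1 member, with an acceptor 78 bases upstream, took 3.12% and 3.28%.

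The 5 gene lists differ in depth, and their counts are read beside the shares of all genes with a member given above. Among 24 sarcomere genes, 17 held 82 members with 636 and 515 reads, which was 1.60% and 1.30% of the reads of the list, and Tnni3 alone accounted for 260 and 219 of them in 8 members. Of the 12 sarcomere genes with 1000 reads or more over both libraries 11 held a member, beside 71.4% of all such genes. Of 24 respiratory chain genes, 23 held 64 members with 402 and 388 reads (0.515% and 0.461%), and 22 of the 24 had 1000 reads or more. Of 16 calcium handling genes, 7 held 20 members with 261 and 240 reads (2.72% and 1.27% of the reads of the list, or 1.37% and 1.23% with the Genomic class kept), mostly in Atp2a2, whose 11 members had 241 and 210 reads. Atp2a2 donors 4 bases downstream recurred at 2 further introns, with 22 and 31 and with 12 and 11 reads of the members concerned. Of 23 genes of fatty acid oxidation, 15 held 47 members with 120 and 124 reads. With 1000 reads or more over both libraries, 10 of 10 of these genes and 4 of 4 calcium handling genes held a member, beside 71.4%. With 100 or more but under 1000 reads it was 5 of 11 and 3 of 7, beside 29.8% of all such genes. The binomial test took 21 sarcomere, 10 respiratory chain, 5 calcium handling, 4 fatty acid oxidation and 1 splicing regulator members. None was called, beside 1.68% of all 7078 models. Fisher's test took 82, 64, 20, 47 and 1 in the same order. It called only the Pln member, beside 0.504% of all 12711 models, and called no member with the Genomic class kept.

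Among 24 splicing regulators 1 held a member, Qk, an RNA-binding protein that controls splicing in muscle. Of these genes 14 had 10 to 99 reads over both libraries and 6 fewer, depths at which 9.47% and 3.18% of all genes held a member. With 100 or more but under 1000 reads it was 1 of 4, beside 29.8% of all such genes. Genes outside the list are not in this count, such as Hnrnpa2b1 with 4 members (9 and 12 reads). The Qk member used an acceptor 24 bases downstream of the annotated one, in the coding span, and took 43 of 96 gene reads in each library (44.8%). Over all Qk models this acceptor was used by 78 and 75 reads, against 17 and 18 for the nearest annotated acceptor. In Lpl, lipoprotein lipase, the leading member used new sites at both ends of its last intron, outside the coding span, with 19 of 2323 and 30 of 2131 reads. The ends of this intron read CT and GC in place of GT and AG.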

How the data were processed

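Heart RNA of female B6CASTF1/J mice was profiled in 1 group of 2 libraries. The deposited tables hold raw read counts per transcript model, with the model's class, length and number of exons, and the deposited models give exon coordinates in mm10. Per the deposited notes these derive from mm10 alignments and the GENCODE M21 primary assembly annotation, and TALON is the source named in the models. Which aligner, versions and filters were used is not stated there. Models without a read are not listed. Listed reads numbered 642970 and 677209, control RNAs included.

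Models were matched between libraries by chromosome, strand and intron chain (Python 3.11.15). Exon numbers were checked against the tables, with 0 differences in 58180 and 63076 models. Known sites were those of the annotated transcripts of the same gene, and distances run in transcript direction, positive downstream. No genome was at hand, so bases were read from GENCODE M21 transcript sequences (6436 transcripts, 0 conflicting bases). Gene reads left out the Genomic class. A short exon had at most 25 bases.

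With 1 group no contrast between conditions exists. Matched spliced models with at least 10 reads were compared between libraries by an exact binomial test on sizes scaled by TMM factors (edgeR 4.0.16), and shares of gene reads by the exact test of Fisher (genes of 10 reads or more per library), with Benjamini-Hochberg adjustment and a threshold of 0.05. DESeq2 1.42.0 size factors were an alternative. In simulated counts the binomial step called 100 of 100 models at 4-fold, 74 of 100 at 2-fold and 8 of 7033 unchanged, among 7233. The Fisher step called 200 of 200 at a 3-fold share and 0 of 12511 unchanged. The simulations hold counting error only.

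Named members were the 20 with the most reads, the 10 with the highest share where the gene had 20 reads or more per library, the 10 with a new internal exon and the most reads, those called by a test, and up to 3 per gene list. Members and lists were chosen with earlier results of these data known.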

Additional observations from a re-analysis of the deposited data

How the results depend on the processing

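The number of members followed the read minimum and the match. With at least 2 reads in each library it fell from 1577 to 530, and with at least 5 to 162, while models of a single library numbered 7689 to 8183. Matching by new junctions alone gave 2215 and 2220, and allowing any class in the other library gave 1975. The median donor distance of 121 bases became 135.5 against sites of any gene, 165 against sites of annotated transcripts with reads, 103 at 2 reads and 42 at 5 reads, and 118 to 135 in single libraries. The median acceptor distance of 56.5 bases became 40 at 2 reads and 26 at 5 reads, and ranged from 52 to 115.5 in single libraries. Donors within 10 bases were 31.6% at 5 reads and 30.01% to 30.8% in single libraries, and acceptors 28.8% to 33.8%. New internal exons fell from 155 to 43 at 2 reads and 10 at 5, and rose to 968 to 1146 in single libraries. The median share of 2.60% (mean of the library medians) became 2.33% with the Genomic class, 3.23% over known, NIC and NNC reads and 13.4% at 5 reads, and was 2.50% to 2.70% in single libraries. GT donors were 84.4% at 5 reads and 89.2% to 89.5% in single libraries, and AG acceptors 95.8% and 97.0% to 97.3%. With the Genomic class Fisher's test called 7 models in place of 64 and 0 members in place of 1, and the Pln member had an adjusted p of 1. The binomial test called 0 members in each of its 4 alternatives, with 86 to 129 models called. Limits added after seeing the data gave 35 members spanning an exon of at most 15 bases, 96 at most 50 bases and 27 at 5 reads, in place of 73, and 222 to 250 models in single libraries. A higher minimum leaves fewer members, and the cause of the changes was not tested. No paired analysis was possible because the 2 libraries form 1 group. A read number of 1, which 1047 members had in their lower library, limits what these counts can show.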
